A study of Mus musculus with 34 samples.

Results

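The genes described here encode the voltage-gated and potassium channels: every protein-coding gene whose name begins with Kcn, with Scn and a digit, or with Cacn. The name rule took 134 genes, of 28432 genes in the 96 h culture table, 30351 in the 10 d culture table and 29745 in the tumor table. They were sorted by name into 9 classes: 40 pore subunits of voltage-gated potassium channels (Kv), 13 Kv auxiliary subunits, 12 genes of calcium- and sodium-activated potassium channels with their beta subunits, 15 inward rectifiers, 14 two-pore-domain potassium channels, 10 sodium channel alpha subunits, 4 sodium channel beta subunits, 10 calcium channel alpha1 subunits and 16 calcium channel auxiliary subunits. The 34 RNA libraries came from mouse small cell lung cancer (SCLC), a lung tumor of neuroendocrine type, with or without bomedemstat (BOM), which blocks LSD1, an enzyme that removes methyl groups from histones. At 96 h, the cell lines RP-116, RP-48 and G8545 each gave 1 library with DMSO, the solvent control, and 1 with BOM. At 10 d, the line RP-48OVA-LLO190 gave 3 libraries with DMSO, 2 with BOM, 3 with DMSO and 2 with BOM that also had interferon gamma (IFNg) for the last 48 h. The tumors grew from RP-48OVA-LLO190 in the flank of immunocompetent mice and were labelled 16 d: 5 received vehicle, 4 BOM, 5 an anti-PD1 checkpoint antibody and 4 BOM plus anti-PD1. Whatever change to RP-48 the longer name records is shared by the DMSO and vehicle controls, and the labels do not describe it. Because all 10 d cultures and all tumors came from 1 line, they are not replicates over lines. The labels do not say whether libraries of a 10 d group were separate cultures, and a p-value there rests on library spread that may be purely technical.

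Voltage-gated channels open when the membrane potential changes. Sodium and calcium channels carry inward current that fires the cell and admits calcium, while potassium channels bring the potential back or hold it. In neuroendocrine cells, calcium entry through these channels couples electrical firing to the release of peptides and amines from granules. The pore is formed by an alpha subunit, and auxiliary subunits change how much of it reaches the membrane and how it gates.

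Library totals were 8712025 to 9968681 counts at 96 h, 5896627 to 9044398 at 10 d and 5638353 to 82205546 in the tumors. The channel genes took 0.271 to 0.344%, 0.354 to 0.429% and 0.210 to 0.288% of these counts. All 10 neuroendocrine markers listed (among them Chga and Insm1) were detected in every group. Their summed level was 2707 to 4111 CPM at 96 h and 2620.3 to 3511 CPM in the tumors, where CPM are counts scaled to a common library total. After a filter on low counts 81, 89 and 80 members were tested at 96 h, at 10 d and in tumors, and 5, 5 and 0 members had no read in any library. Most inward rectifiers were too low to test, with 4 of 15 tested at 10 d, and so were 4 of the 10 sodium channel alpha subunits.

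Levels were compared between genes only per length, as RPKM, the CPM divided by the gene's length in kilobases. In DMSO cultures at 10 d, 67 members reached 1 RPKM and 17 reached 10 RPKM. Among the members of highest level was Kcnh5, an ether-a-go-go channel, at 41.8 ± 0.800 RPKM (SD, n = 3). Kcnip3, a calcium-binding Kv partner, stood at 34.5 ± 1.46 RPKM. A group of lower members lay close together: Kcnk2, a mechanosensitive leak channel, at 25.9 ± 1.42, the sodium channel Scn3a at 25.5 ± 2.81, the auxiliary subunit Cacng4 at 25.2 ± 2.73 and the N-type calcium channel Cacna1b at 24.4 ± 0.414 RPKM. Neighbours in that group of 4 differed by less than the larger of their SDs. In vehicle tumors the leading members were the leak channel Kcnk1 at 53.8 ± 6.69, Cacnb3, a calcium channel beta subunit, at 45.6 ± 5.58 and Kcnk2 at 37.3 ± 10.0 RPKM (SD, n = 5). In the 96 h DMSO libraries Kcnk1 stood at 41.7 ± 3.71 and Cacng4 at 29.6 ± 16.5 RPKM (SD over the 3 lines). The 3 tables were normalized separately, so these orders were not tested against each other.

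The first comparison asks what BOM does to channel transcripts after 96 h in 3 lines. Each line was its own pair, and the fit with the line as a block left 2 residual degrees of freedom. None of the 81 tested members was called by edgeR's quasi-likelihood test at an adjusted p under 0.05, against 0% of all 13333 genes. At an unadjusted p under 0.05 there were 18 of the 81, against 812 of all 13333 genes. DESeq2 called 1 member and limma voom 0. All 3 lines moved up in 18 members and down in 9, that is 22.2% and 11.1% of those tested, against 12.1% and 13.2% of all genes. No member moved at least 2-fold in all 3 lines. The median log2 change was 0.05 over members and -0.01 over all genes.

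The lowest p belonged to Kcnq3, a pore subunit of the M-current, which damps repeated firing. With DMSO and with BOM, RP-116 held 1.95 and 3.17 CPM, RP-48 held 41.9 and 81.8 CPM, and G8545 held 15.8 and 71.4 CPM. All 3 lines were higher with BOM, although their control levels differed more than the treatment changed them. The log2 change was 1.41 ± 0.29 (SE, adjusted p = 0.293). Kcnq3 was also the member that DESeq2 called. The Shaker-type channel Kcna2 went from 0.366 to 1.06, from 7.76 to 23.1 and from 14.5 to 25.7 CPM in the same order of lines, a log2 change of 1.22 ± 0.27 (adjusted p = 0.330). The T-type calcium channel Cacna1h went from 159 to 107, from 73.7 to 58.0 and from 132 to 71.6 CPM, a log2 change of -0.60 ± 0.14 (adjusted p = 0.385). Its level was lower with BOM in each line. Leaving out G8545 gave 4 members called higher and 3 lower, and the share of all genes called in that fit is not given here.

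After 10 d of BOM in RP-48OVA-LLO190, 17 of 89 tested members rose and 25 fell. This is 47.2% of the members against 20.3% of all genes called in either direction, and 19.1% and 28.1% against 12.1% called higher and 8.25% called lower over all 15230 genes. Of these, 12 rose and 10 fell by at least 2-fold. The median log2 change was -0.08 over members and -0.01 over all genes. The channels that rose most were the acid-sensitive leak channel Kcnk9, the T-type channel Cacna1g and the auxiliary subunits Kcnmb1 and Kcnip1. The high-level channels Scn3a, Cacna1c and Cacna1b fell. The libraries of the 2 groups did not overlap in 27 members that lay higher and 34 that lay lower with BOM, or 30.3% and 38.2%, against 25% and 23.5% of all genes. When counts were scaled by their totals only, 19 were called higher and 19 lower, which moved the share of higher calls from 40.5% to 50%. Without either BOM library 16 were called lower. Beside these changes, summed fibroblast markers stood at 16.4 to 20.2 CPM in the DMSO and 48.7 to 58.2 CPM in the BOM cultures, and endothelial markers at 9.51 to 11.9 and 33.0 to 47.5 CPM, while the macrophage markers Adgre1, C1qa, C1qb and Lyz2 were at 0. The part of these markers in the channel results was not tested.

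**Figure D1:**
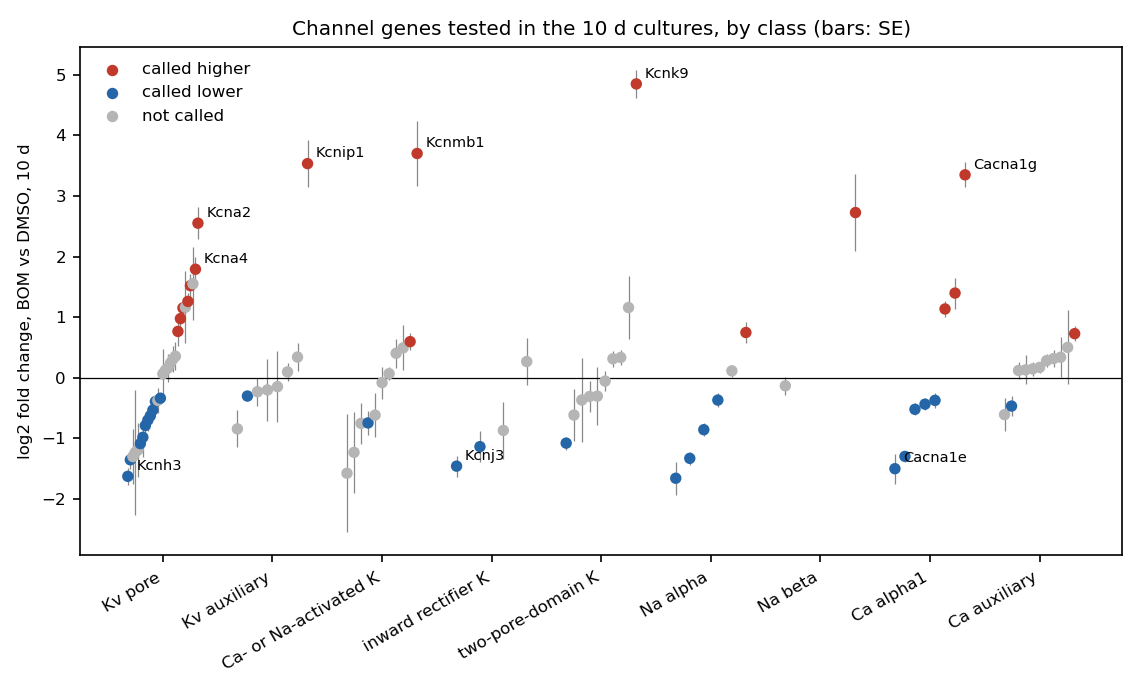
The plot of log2 changes by channel class shows each tested member as a point, with BOM against DMSO at 10 d on the vertical axis in log2 units, the 9 classes along the horizontal axis, red points for members called higher by edgeR, blue for those called lower, grey for the others, and bars for the SE. Called members lie on both sides of 0 in 7 of the 9 classes, and Kcnk9 is the highest point at 4.85.

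Among the pore subunits of voltage-gated potassium channels, 7 of 29 tested rose and 10 fell. Kcna2 had 3.48, 1.85 and 2.11 CPM in the DMSO libraries and 13.5 and 16.3 in the BOM libraries. It was higher in every BOM library than in any DMSO library, with a log2 change of 2.55 ± 0.26 (adjusted p = 1.56e-06). Kcnq3 had 19.3, 11.4 and 15.5 CPM with DMSO and 43.1 and 45.9 with BOM, without overlap, and rose by 1.52 ± 0.20 log2 units (adjusted p = 2.45e-05). The A-type channel Kcna4 rose by 1.79 and the ether-a-go-go channel Kcnh1 by 1.15.

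Several of the falling pore subunits belong to the Kcnh family. Kcnh3, an ether-a-go-go-like channel, had 52.2, 56.3 and 65.3 CPM with DMSO and 18.5 and 18.8 with BOM, a log2 change of -1.63 ± 0.15 (adjusted p = 2.96e-07). Its relative Kcnh8 fell from 28.7 to 11.2 CPM (-1.36), Kcnh2, the ERG channel of cardiac repolarization, from 53.8 to 34.8 (-0.63), and Kcnc1, a fast Shaw-related channel, from 125 to 72.4 (-0.79).

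In the two-pore-domain class, which sets the resting leak, 1 of 10 rose and 1 fell. Kcnk9 had 1.95, 1.85 and 1.76 CPM in the DMSO libraries and 55.1 and 53.1 in the BOM libraries. Every BOM library lay far above every DMSO library, a log2 change of 4.85 ± 0.23 or 28.8-fold (adjusted p = 1.57e-10). Kcnk9 lies at chr15:72501089-72546340, minus strand (mm10, GENCODE M21). Kcnk2 had 136, 126 and 123 CPM with DMSO and 59.3 and 61.9 with BOM, a log2 change of -1.08 ± 0.11 (adjusted p = 1.06e-06). Of its annotated exon bases, 12.2% overlap an antisense gene, and the library kit keeps no strand information, so reads of the 2 genes cannot be told apart there. Among the inward rectifiers, Kcnj3 and Kcnj6, both subunits of channels opened by G proteins, fell from 30.2 to 10.96 (-1.46) and from 14.4 to 6.51 CPM (-1.14). Kcnj3 shares 31.1% of its exon bases with another annotated gene.

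**Figure D2:**
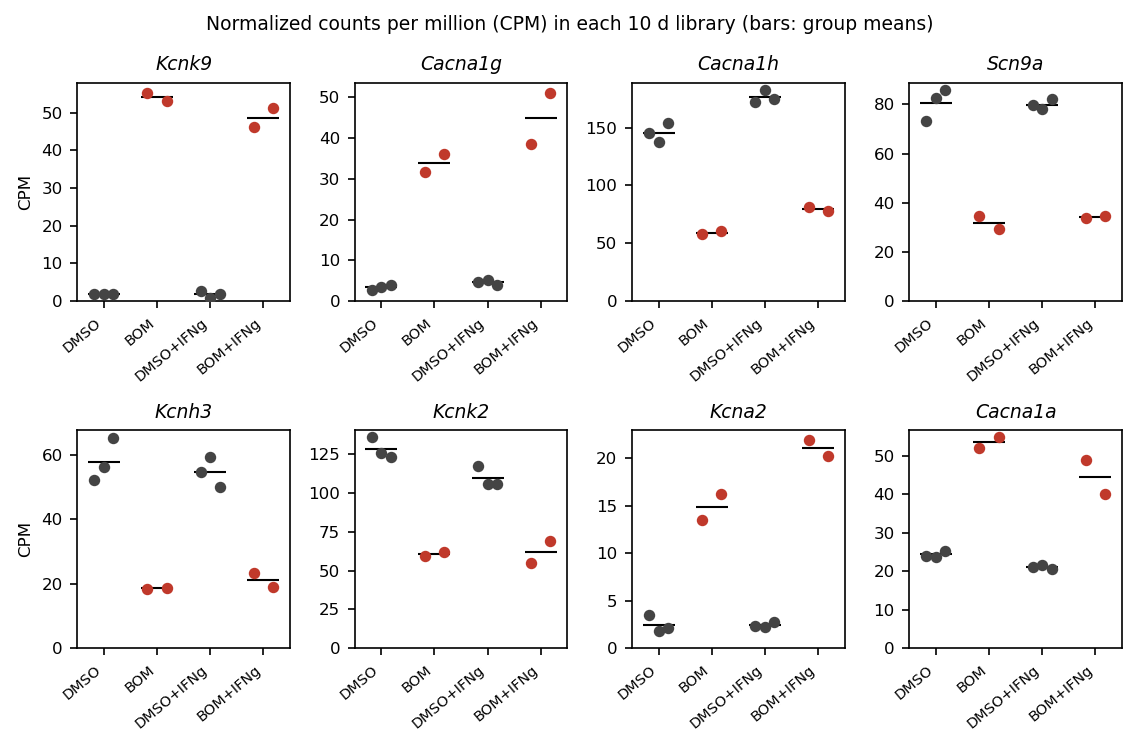
The plot of CPM by library shows 8 of the called members of lowest p in the 10 libraries of the 10 d table, with 1 panel per gene, CPM on the vertical axis and 1 point per library in the groups DMSO, BOM, DMSO plus IFNg and BOM plus IFNg, and bars for group means. In each panel the BOM libraries lie apart from the DMSO libraries with and without IFNg, for example at 55.1 and 53.1 CPM for Kcnk9 without IFNg.

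The calcium channel pores moved in both directions, with 3 of 8 higher and 5 lower, so every tested member of the class was called. The T-type channels, which open near the resting potential, split. Cacna1g had 2.64, 3.53 and 3.87 CPM with DMSO and 31.6 and 36.1 with BOM, a log2 change of 3.35 ± 0.21 (adjusted p = 3.45e-09). Cacna1h had 145, 138 and 154 CPM with DMSO and 57.9 and 60.3 with BOM, a log2 change of -1.30 ± 0.09 (adjusted p = 1.73e-08). Neither gene's groups overlapped. The third T-type gene, Cacna1i, rose from 4.16 to 10.96 CPM (1.396). Per length, the means of Cacna1g and Cacna1h were 0.330 and 14.9 RPKM with DMSO and 3.34 and 6.06 RPKM with BOM.

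The high-voltage calcium channels split as well. Cacna1a, the P/Q-type pore of presynaptic release, had 24.1, 23.7 and 25.3 CPM with DMSO and 52.0 and 54.9 with BOM, a log2 change of 1.13 ± 0.12 (adjusted p = 3.23e-06). The N-type pore Cacna1b, also presynaptic, fell from 242 to 179 CPM (-0.44), the L-type pore Cacna1c from 281 to 196 (-0.52) and the R-type pore Cacna1e from 15.9 to 5.57 (-1.50). The fifth that fell was the L-type pore Cacna1d, at -0.38. Of 11 auxiliary subunits tested, Cacna2d2, an alpha2delta subunit, rose from 46.1 to 76.2 CPM (0.73), and the beta subunit Cacnb2 fell by 0.47 on the log2 scale. The call of Cacna1b was lost without BOM library 2, at an adjusted p of 0.0607.

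Of 6 sodium channel pores tested, 1 rose and 4 fell. Scn9a, known from peripheral sensory neurons, had 73.2, 82.6 and 85.9 CPM with DMSO and 34.4 and 29.5 with BOM, a log2 change of -1.33 ± 0.11 (adjusted p = 1.45e-07). Scn3a, the sodium channel of highest level per length, fell from 324 to 179 CPM (-0.86). Scn1a, a pore of central neurons, had a log2 change of 0.75.

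Auxiliary subunits of potassium channels held some of the highest fold changes at low levels. Kcnip1, a calcium-binding partner of A-type channels, had 1.11, 1.34 and 0.528 CPM with DMSO and 11.5 and 12.2 with BOM, a log2 change of 3.53 ± 0.39 (adjusted p = 3.77e-06). Kcnmb1, the beta1 subunit of the large-conductance calcium-activated channel, had 0.139, 0.840 and 0.704 CPM with DMSO and 8.10 and 6.32 with BOM, a log2 change of 3.70 ± 0.53 (adjusted p = 5.97e-05). Both genes lay higher in every BOM library. Kcnmb1 (chr11:33963013-33973641, plus strand) lies inside Kcnip1 (chr11:33629339-33993152, minus strand) on the opposite strand, and the genes share 0 annotated exon bases. The pore of that channel, Kcnma1, rose from 31.8 to 48.2 CPM (0.59). Its call was lost without BOM library 1, at an adjusted p of 0.135.

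Promoter sequences were taken from RefSeq windows (GRCm38.p6) of 300 bases, 250 before and 50 after the start, which matched 99 of the 134 members with 135 windows. Shown are the 250 bases before the start for the 2 rising and 2 falling members of lowest p whose stretch matched the GENCODE start and held no annotated exon, so that the DNA before genes of both directions can be read. Each is 5′ to 3′ on the strand of the gene, and capitals mark a searched motif. Kcnmb1 lies at chr11:33962763-33963012 on the plus strand and Cacna1i at chr15:80286988-80287237 on the plus strand, and both genes rose. Scn9a lies at chr2:66634963-66635212 on the minus strand and Kcnk2 at chr1:189402274-189402523 on the minus strand, and both genes fell.
Kcnmb1: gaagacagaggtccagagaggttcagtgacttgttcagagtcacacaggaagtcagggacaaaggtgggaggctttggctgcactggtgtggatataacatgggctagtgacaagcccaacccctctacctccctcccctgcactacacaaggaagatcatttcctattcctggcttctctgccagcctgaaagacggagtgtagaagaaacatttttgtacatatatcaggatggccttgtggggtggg
Cacna1i: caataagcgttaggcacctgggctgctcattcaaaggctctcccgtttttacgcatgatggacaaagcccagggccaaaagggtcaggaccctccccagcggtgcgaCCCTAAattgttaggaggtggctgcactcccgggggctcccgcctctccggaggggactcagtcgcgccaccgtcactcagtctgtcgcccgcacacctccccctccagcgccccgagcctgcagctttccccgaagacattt
Scn9a: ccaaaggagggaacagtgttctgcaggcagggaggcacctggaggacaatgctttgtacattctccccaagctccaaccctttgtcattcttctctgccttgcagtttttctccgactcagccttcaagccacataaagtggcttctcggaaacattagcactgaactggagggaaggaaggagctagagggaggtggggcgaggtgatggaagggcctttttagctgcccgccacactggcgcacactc
Kcnk2: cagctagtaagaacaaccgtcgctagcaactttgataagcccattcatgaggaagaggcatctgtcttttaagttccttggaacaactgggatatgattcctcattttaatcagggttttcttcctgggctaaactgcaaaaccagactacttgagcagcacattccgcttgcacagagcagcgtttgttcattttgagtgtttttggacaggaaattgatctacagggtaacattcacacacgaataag

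The stretches before Kcnmb1, Cacna1i, Scn9a and Kcnk2 held 50.8, 62.4, 54.4 and 42.4% G and C, and 1, 16, 5 and 5 CpG dinucleotides. The capitals before Cacna1i are TTAGGG read on the other strand, a telomere-like repeat unit searched as a comparison. Both strands were searched for CAGCTG, an E-box, for TGGGAA, the core bound by RBPJ, for TTCAGCACC, a part of the REST element, and for TTAGGG. None of the first 3 motifs stood in the 4 stretches shown. The full 300-base window of Kcnmb1 did hold TGGGAA. Kcnk2 has 4 windows, of which 1 is shown in part, and CAGCTG stood in at least 1 of the 4. Over all 300-base windows, CAGCTG stood in 27.4% of the 135 member windows and in 16.3% of all 32851, TGGGAA in 26.7% and 25.6%, TTCAGCACC in 0.741% and 0.371%, and TTAGGG in 8.89% and 10.6%. The other part of the REST element, whose letters are not printed here, stood in 0% and 0.137%. No motif contains another, and CAGCTG reads the same on both strands. Of members called at 10 d with a window, CAGCTG stood before 3 of 11 that rose and 8 of 18 that fell. Several windows can belong to 1 gene and share bases, the median content of G and C was 58.0% in member windows and 52.7% in all, and a match is a description of letters only.

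With IFNg present for the last 48 h, BOM against DMSO called 18 of 89 members higher and 22 lower, or 44.9% together, against 23.1% called over all genes (13% higher and 10.1% lower). With counts scaled by their totals only, 21 were called higher and 20 lower, which turned the balance of the calls and moved the share of higher calls from 45% to 51.2%. Without BOM plus IFNg library 2, 14 were called lower. The 2 tests of BOM in culture compare separate libraries within a shared fit. They shared 34 calls of the same direction, 81% of the calls without IFNg and 85% of those with it, and no call was opposite. No such share over all genes is given here, so this is not a trait shown to be particular to channels. Kcnk9 had 2.76, 0.793 and 1.82 CPM with DMSO plus IFNg and 46.1 and 51.1 with BOM plus IFNg, a log2 change of 4.74 ± 0.23 (adjusted p = 2.44e-10). Cacna1g had 4.61, 5.23 and 3.97 and 38.6 and 51.1 CPM, a log2 change of 3.28 ± 0.19 (adjusted p = 1.84e-09). In both genes every BOM library lay above every DMSO library.

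On the falling side with IFNg, Cacna1h had 172, 182 and 175 CPM with DMSO and 81.7 and 77.6 with BOM, a log2 change of -1.15 ± 0.09. Scn9a had 79.7, 78.1 and 82.1 and 33.8 and 34.6 CPM (-1.22). In both genes every BOM library lay below every DMSO library. Kcnh8 changed by -1.58, Kcnh3 by -1.38, Kcnc1 by -1.11 and Scn3a by -0.95, and Kcna2, Kcnq3, Scn1a, Kcnma1 and Cacna1a rose by 3.10, 1.86, 1.44, 1.13 and 1.07. Whether IFNg changed the response to BOM was tested by an interaction term in edgeR. It called 0 of 89 members, against 0% of all genes. An unadjusted p under 0.05 was reached by 8 of 89 members and by 725 of all 15230 genes. No member was called by DESeq2 or limma voom. Among the lowest p were those of Kcna4 and Kcnma1, with differences of -0.85 ± 0.29 and 0.53 ± 0.20 log2 units and an adjusted p of 0.834 for the former.

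IFNg itself changed few channel genes. In DMSO cultures 3 of 89 rose and 1 fell, or 4.49%, against 2.27% called over all genes (1.95% higher and 0.315% lower). Kcnh1 had 11.3, 12.9 and 14.96 CPM without and 25.5, 35.8 and 35.4 with IFNg, a log2 change of 1.31 ± 0.15 (adjusted p = 1.97e-05). The groups did not overlap. The alpha2delta subunit Cacna2d3 rose from 44.5 to 62.7 CPM (0.49), the acid-sensitive leak channel Kcnk3 from 25.7 to 37.9 (0.56), and Cacna1e fell from 15.9 to 7.94 (-0.995). Same-numbered DMSO libraries correlated in their deviations here, although number 3 matched number 2 best, so pairing is uncertain. A fit with the replicate number as a block called 5 higher and 1 lower, in place of 3 and 1. The call of Cacna1e was lost without DMSO library 2 or DMSO plus IFNg library 3, and that of Kcnk3 without DMSO library 2 or 3 or DMSO plus IFNg library 3.

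In BOM cultures IFNg called 3 members higher and 0 lower, or 3.37%, against 2.06% called over all genes (1.73% higher and 0.328% lower). Kcnh1 had 27.6 and 30.1 CPM without and 62.6 and 66.2 with IFNg, a log2 change of 1.16 ± 0.16 (adjusted p = 0.000225). Cacna1h changed by 0.43 (adjusted p = 0.0270) and Cacna2d3 by 0.46 (adjusted p = 0.0330). With 2 libraries a group, Kcnh1 alone remained called in a fit of these groups only, and in the fits without either BOM library, either BOM plus IFNg library or DMSO plus IFNg library 3. DESeq2 and limma voom also called 0 lower. An unadjusted p under 0.05 was reached by 12 of 89 members and by 1551 of all 15230 genes.

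Before the tumor comparisons, 2 tumors labelled vehicle need naming, because their channel values lay closer to BOM tumors than those of the other vehicle tumors did. For the 46 members called between BOM plus anti-PD1 and anti-PD1, each tumor was placed by which of those 2 group means it lay nearer to on log2(CPM + 0.5). The vehicle tumors 1 to 5 lay nearer to the BOM plus anti-PD1 mean in 38, 23, 3, 3 and 0 of the 46, and the BOM tumors in 43, 32, 40 and 43. Vehicle tumor 2 was thus split evenly, with 23 members nearer to each mean. The tumors of the anti-PD1 groups set that choice and are no check of it. The library labelled vehicle 1 was also the deepest, with 82205546 counts, and vehicle 2 held 13150056. The cause was not tested. The counts of calls against vehicle, and the changes of several members, are therefore given with all 5 vehicle tumors and without vehicle tumors 1 and 2. Other values against vehicle, among them those of markers and channel partners, use all 5. Because the 2 were singled out by channel values, leaving them out favors a wider gap to BOM in these same genes. The counts and p-values without them are no independent support. In these bulk libraries fewer cells of a type and less RNA per cell cannot be told apart.

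**Figure D3:**
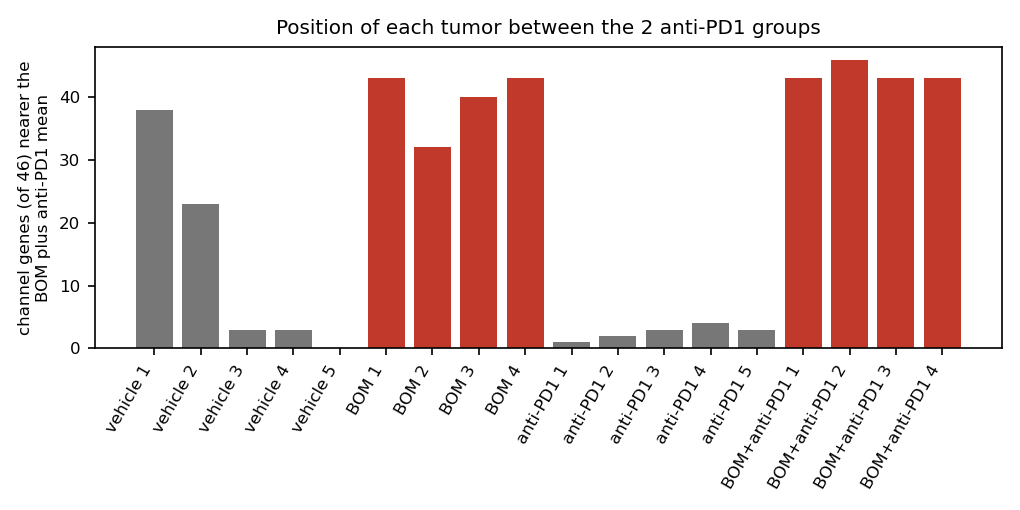
The plot of tumor positions shows, for each of the 18 tumors along the horizontal axis by group, the number of the 46 members that lay nearer to the BOM plus anti-PD1 mean than to the anti-PD1 mean (bars from 0). Vehicle tumors 1 and 2 stand at 38 and 23, and the other vehicle tumors at 3 or fewer.

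BOM against vehicle tumors called 5 of 80 members higher and 18 lower, or 6.25% and 22.5%, or 28.8% together, against 14.5% of all genes called, 5.9% called higher and 8.63% called lower over all 14332 genes. Without vehicle tumors 1 and 2, left out after seeing their channel values, 11 were higher and 24 lower. Over all genes 11.7% and 11.6% were called (23.3% together), and all 23 first calls of members were among the new ones. With all vehicle tumors, the higher calls were 1, 0 and 1 without vehicle 3, 4 and 5, and 1, 1, 2 and 1 without BOM 1 to 4. The median log2 change over members was -0.19, and -0.02 over all genes. By class, 3 of 27 Kv pores rose and 7 fell, 4 of 6 sodium channel pores and 3 of 6 calcium channel pores fell and none rose, and no inward rectifier or sodium beta subunit was called.

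Kcnk2 was the member of lowest p. It had 106, 164, 216, 215 and 221 CPM in vehicle tumors 1 to 5 and 51.9, 58.4, 65.4 and 62.7 in BOM tumors 1 to 4. Every BOM tumor lay below every vehicle tumor, with vehicle 1 the lowest of its group. The log2 change was -1.62 ± 0.19 (adjusted p = 9.32e-05), and -1.86 ± 0.13 without vehicle 1 and 2. Scn2a, a sodium channel of central neurons, had 5.46, 9.51, 14.3, 10.4 and 10.4 CPM with vehicle and 2.95, 2.698, 2.56 and 2.91 with BOM, a log2 change of -1.83 ± 0.25 (adjusted p = 0.000400), and -2.07 without the 2 tumors. Kcnc1 had 38.1, 61.2, 71.5, 94.5 and 79.7 CPM with vehicle and 18.2, 24.2, 31.2 and 20.99 with BOM, a log2 change of -1.53 ± 0.24 (-1.79 without the 2 tumors). In both genes no BOM tumor reached the lowest vehicle tumor.

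Kcns2, a silent subunit that modifies other Kv pores, had 3.90, 6.77, 9.91, 10.3 and 8.65 CPM with vehicle and 1.61, 2.33, 2.96 and 1.39 with BOM (-1.90 ± 0.31, and -2.20 without the 2 tumors). Cacna1c had 46.4, 58.4, 79.1, 72.5 and 89.6 CPM with vehicle and 35.1, 40.8, 31.2 and 29.3 with BOM (-1.01 ± 0.19, and -1.24). Kcnh2 had 44.7, 57.4, 58.6, 62.1 and 77.7 CPM with vehicle and 31.5, 35.3, 34.6 and 37.0 with BOM (-0.79 ± 0.15, and -0.94). The groups of these 3 genes did not overlap. Other falls were those of Kcnip4 (-1.17), Scn3a (-1.35), Kcnh8 (-0.92), the sperm channel Kcnu1 (-1.26), Cacna1h (-0.96), the A-type channel Kcnd1 (-1.69) and the M-current gene Kcnq5 (-0.91).

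**Figure D4:**
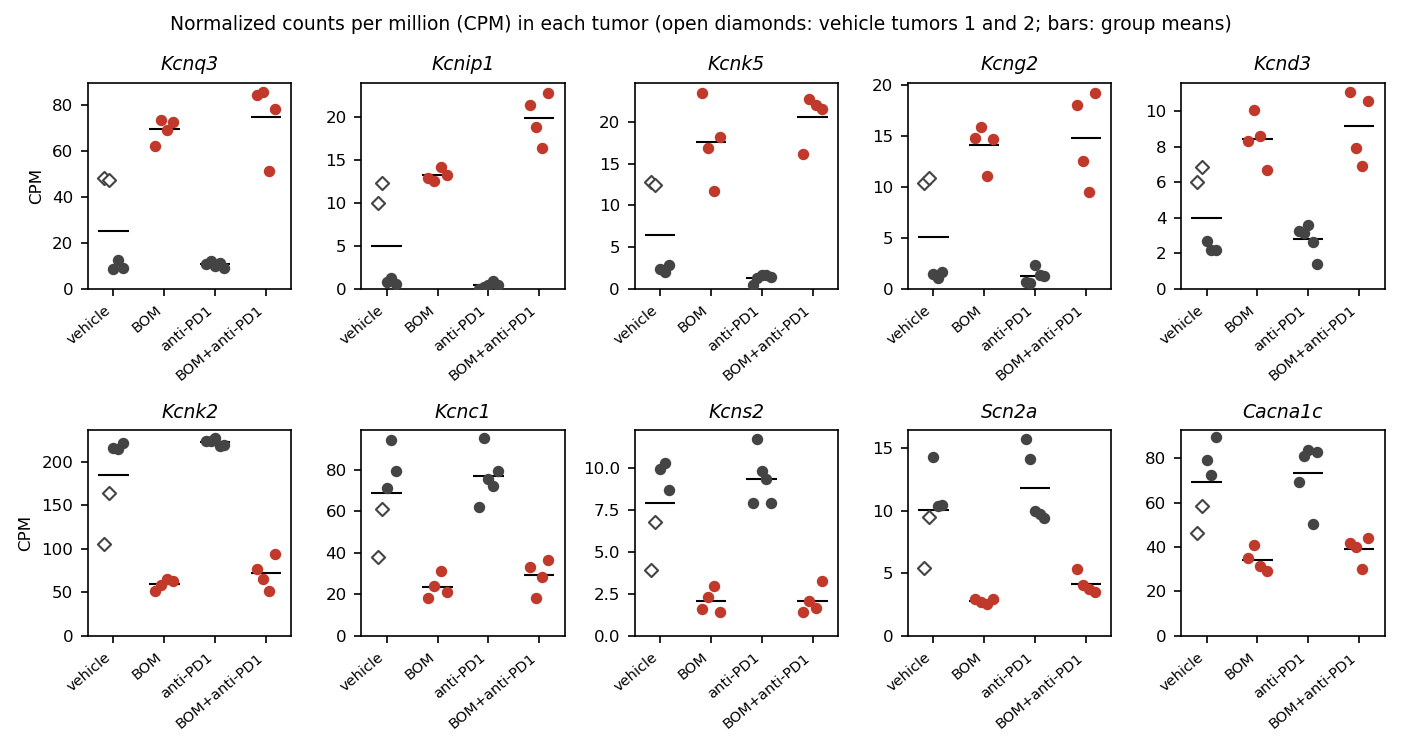
The plot of CPM by tumor shows members called in the tumor comparisons, 1 panel per gene, with CPM on the vertical axis and 1 point per tumor in the groups vehicle, BOM, anti-PD1 and BOM plus anti-PD1, open diamonds for vehicle tumors 1 and 2, and bars for group means. For Kcnk2 the BOM tumors sit between 51.9 and 65.4 CPM, below every vehicle tumor, while for Kcnq3 vehicle tumors 1 and 2 sit near the BOM tumors.

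Rises against vehicle depended on vehicle tumors 1 and 2. Kcnq3 had 48.3, 47.4, 8.49, 12.6 and 9.07 CPM in vehicle tumors 1 to 5 and 62.0, 73.3, 69.3 and 72.8 in BOM tumors. Vehicle 1 and 2 lay far above the other vehicle tumors and below the BOM tumors. The log2 change was 1.38 ± 0.39 (adjusted p = 0.0243), and 2.78 ± 0.18 (adjusted p = 1.07e-08) without the 2 tumors. Its call with all tumors was lost in the fit of the compared groups only and in those without vehicle 4, vehicle 5 or BOM 4, with an adjusted p of at most 0.0873. Kcnip1 had 9.94, 12.3, 0.708, 1.23 and 0.549 CPM with vehicle and 12.9, 12.5, 14.1 and 13.1 with BOM. It missed the threshold with all tumors (1.27 ± 0.58, adjusted p = 0.155) and passed it without the 2 (3.97 ± 0.37, adjusted p = 8.23e-07). The silent subunit Kcng2 did likewise, at 1.35 (adjusted p = 0.0842) and 3.33 (adjusted p = 6.00e-06).

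BOM plus anti-PD1 against anti-PD1 compares neither vehicle nor BOM-only tumors, but its filter, scaling and spread come from the fit of all tumors. Its SE and p-values therefore depend in part on vehicle tumors 1 and 2. It called 19 of 80 members higher and 27 lower, or 23.8% and 33.8%, or 57.5% together, against 32.4% of all genes called, 15.8% called higher and 16.6% called lower over all genes. Without vehicle tumors 1 and 2 in the fit, the same 46 members were called. Kv pores gave 10 of 27 higher and 10 lower. Of 10 two-pore-domain channels 4 rose and 1 fell, and of 6 calcium channel pores none rose and 5 fell.

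Kcnk2 had 224, 223, 227, 218 and 219.7 CPM in anti-PD1 tumors 1 to 5 and 77.0, 65.1, 51.6 and 93.7 in BOM plus anti-PD1 tumors 1 to 4, a log2 change of -1.63 ± 0.19 (adjusted p = 3.09e-05). Kcnip4, a calcium-binding partner of A-type channels, had 11.3, 12.8, 13.2, 13.1 and 12.5 and 4.64, 4.08, 2.31 and 2.26 CPM, a log2 change of -1.92 ± 0.24 (adjusted p = 4.56e-05). Kcns2 had 7.90, 11.7, 9.81, 9.34 and 7.89 and 1.41, 2.04, 1.67 and 3.25 CPM, a log2 change of -2.15 ± 0.32 (adjusted p = 0.000143). Each of these 3 genes was lower in every tumor with BOM. Scn2a, Kcnc1, Kcnh2, Cacna1h, Cacnb4, a calcium channel beta subunit, and Kcnb2, a delayed rectifier, changed by -1.50, -1.404, -0.85, -1.27, -1.15 and -0.72 log2 units.

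Kcnk5, an alkaline-sensitive leak channel, had 0.483, 1.22, 1.61, 1.61 and 1.41 CPM in anti-PD1 tumors and 16.2, 22.8, 22.1 and 21.6 in BOM plus anti-PD1 tumors, a log2 change of 4.02 ± 0.53 (adjusted p = 6.97e-05). Kcnip1 had 0, 0.175, 0.357, 0.876 and 0.423 and 21.4, 18.7, 16.3 and 22.8 CPM, a log2 change of 5.67 ± 0.82 (adjusted p = 0.000135). Kcnq3 had 10.8, 11.9, 9.99, 11.2 and 8.74 and 84.3, 85.7, 51.1 and 78.5 CPM, a log2 change of 2.83 ± 0.43 (adjusted p = 0.000164). Without vehicle tumors 1 and 2 in the fit, its log2 change was 2.84 ± 0.15. In all 3 every tumor with BOM lay above every tumor without it, and Kcnip1 was near or at 0 in the anti-PD1 tumors. Kcnh1, Kcng2 and Kcnn3, a small-conductance calcium-activated channel, rose by 3.11, 3.60 and 1.30. Kcng2 and Cacnb4 share 9.1% and 16.0% of their exon bases with genes on the other strand, where reads cannot be assigned.

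BOM plus anti-PD1 against vehicle, which shares its controls with the BOM comparison, called 8 higher and 18 lower, or 32.5%, against 10.7% called over all genes (4.94% higher and 5.8% lower). Without vehicle 1 and 2 it called 16 and 23, or 48.8%, against 22.7% (12.3% higher and 10.4% lower). No member was called higher without vehicle 3, 4 or 5, and 8 to 10 were then called lower. Leaving out BOM plus anti-PD1 tumor 1, 2 or 4 left 2 to 4 higher, and leaving out tumor 2, 3 or 4 left 9 or 10 lower. Kcnk2 changed by -1.35 ± 0.19 (adjusted p = 0.000478) and Kcns2 by -1.89 ± 0.31 (adjusted p = 0.00206), beside -1.62 and -1.90 for BOM alone against the same vehicle tumors.

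Anti-PD1 against vehicle called 0 of 80, against 0% of all genes. An unadjusted p under 0.05 was reached by 12 members (3 without vehicle 1 and 2) and, with all tumors, by 1411 of all 14332 genes. Its lowest p were those of Kcnk5, Kcnip1 and Kcng2, at -2.45, -3.81 and -2.18 log2 units (adjusted p = 0.203, 0.203 and 0.255). DESeq2 called these 3 lower, at adjusted p of 0.00116, 0.00765 and 0.0407, and limma voom called 0. Without vehicle 1 and 2 the log2 changes of Kcnk5, Kcnip1 and Kcng2 were -0.92, -1.10 and -0.20.

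BOM plus anti-PD1 against BOM called 0 of 80 members in edgeR, DESeq2 and limma voom, against 0.00698% of all genes. An unadjusted p under 0.05 was reached by 6 of 80 members and by 1109 of all 14332 genes. The lowest p were those of Kcnh5 (-0.58 ± 0.21, adjusted p = 0.565), Kcnd1 (1.10 ± 0.42) and Kcnmb4, a beta subunit of the large-conductance channel (-0.52 ± 0.20). The interaction of BOM with anti-PD1 called 0 of 80 in the same 3 tools, against 0% of all genes. Its unadjusted p was under 0.05 in 14 of 80 members and in 1258 of all 14332 genes. Its lowest p were those of Kcnip1 (4.39 ± 1.05, adjusted p = 0.391), Kcnh1 (2.66) and Kcnk5 (2.68). Without vehicle 1 and 2 these differences were 1.68, 1.98 and 1.15, and 7 members had an unadjusted p under 0.05.

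Muscle markers moved with some channel values. Summed over 8 skeletal muscle markers, BOM tumor 2 held 1218 CPM, vehicle tumor 1 held 144, and BOM plus anti-PD1 tumors 3 and 4 held 176 and 128, while the other tumors held 3.79 to 72.5 CPM. The muscle pores Cacna1s and Scn4a stood at 11.5 and 6.99 CPM in BOM tumor 2 and at 1.27 and 0.782 CPM or less elsewhere, and neither was tested. With the 4 tumors above 100 CPM left out, a limit chosen after seeing the data, BOM against vehicle called 5 members higher and 26 lower, and BOM plus anti-PD1 against anti-PD1 called 17 and 19. The share of all genes called in that fit is not given here. Between BOM and vehicle tumors the neuroendocrine markers gave 2 higher and 7 lower of 10, with a median log2 change of -0.62, and between BOM plus anti-PD1 and anti-PD1 0 higher and 5 lower, with a median of -0.49. Over all genes 5.9% and 8.63% were called higher and lower in the former comparison, and 15.8% and 16.6% in the latter. Macrophage markers summed to 462 to 1273 CPM with vehicle and 406 to 1044 with BOM, and markers of Schwann cells and nerve to 143 to 181 and 118 to 139.8 CPM. The part of neuroendocrine and nerve markers in the channel results was not tested.

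Setting the 4 comparisons of BOM side by side, 72 members were tested in all of them. Kcnq3 was called higher in all 4. In all 4, 10 members were called lower, among them Cacna1b, Cacna1c, Cacna1h, Kcnc1, Kcnh2, Kcnh8, Kcnk2, Kcns2 and Scn3a, and 14 members were called in none. Cultures at 10 d and the BOM against vehicle tumors shared 13 calls of the same direction, 35.1% and 59.1% of the calls among members tested in both, and no call was opposite. Cultures at 10 d and BOM plus anti-PD1 against anti-PD1 shared 24, or 64.9% and 53.3%, and 2 were opposite. BOM against vehicle and BOM plus anti-PD1 against anti-PD1, on separate tumors within a shared fit, shared 21, or 91.3% and 45.7%. For none of these shared calls is the share over all genes given here. Whether channel genes share calls more often than other genes was not tested. Of the leak channels, Kcnk9 went from 1.85 to 54.1 CPM in culture and from 0.0995 to 1.78 CPM between the anti-PD1 groups, and Kcnk5 went from 1.27 to 20.7 between the same tumors. Kcnk5 was not tested in the cultures. Cacna1g, high with BOM in culture, stood at 0.120 to 3.22 CPM over all 18 tumors and was not tested there.

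**Figure D5:**
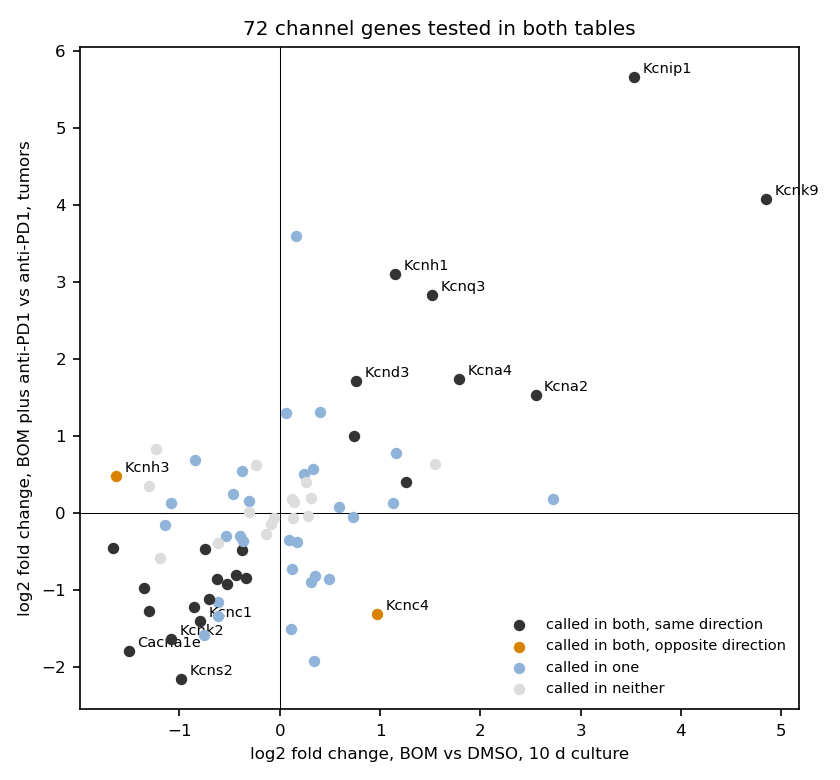
The plot of culture against tumor sets the log2 change of BOM against DMSO at 10 d (horizontal axis) beside that of BOM plus anti-PD1 against anti-PD1 tumors (vertical axis), both in log2 units, with 1 point per member tested in both and colours for the calls. Members called in the same direction number 24, and Kcnc4 and Kcnh3 are the 2 called in opposite directions.

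Channel partners outside the name rule were followed from a list of 33 genes. At 10 d, 9 of 27 tested rose and 2 fell, against 12.1% of all genes called higher and 8.25% called lower. Rest, the repressor of neuronal genes whose sites lie near many channel genes, rose by 2.75 ± 0.27 log2 units, from 4.37 to 29.0 CPM (adjusted p = 7.37e-07). Dpp6, an A-type channel partner, rose from 41.5 to 110.1 CPM (1.41), and Gem, a small GTPase that inhibits calcium channels, changed by 2.33. Fgf13, which binds sodium channel tails, and the pacemaker channel Hcn4 fell by 0.89 and 0.68 on the log2 scale. In BOM against vehicle tumors 1 of 26 rose, Rest at 1.54 ± 0.41 (adjusted p = 0.0188), and 8 fell, among them Fgf13 (-1.27), Hcn2 (-1.60) and Hcn4 (-1.54). Over all genes 5.9% were called higher and 8.63% lower there. In BOM plus anti-PD1 against anti-PD1 7 rose and 8 fell, with Rest from 4.45 to 39.1 CPM (3.14), Fgf13 at -1.86 and Hcn4 at -2.04. Over all genes 15.8% were called higher and 16.6% lower in that comparison.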

How the data were processed

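The values used are raw read counts for each gene, which the authors deposited in 3 tables. Per the submitters' processing notes, featureCounts (Subread 2.0), STAR 2.7, bcl2fastq and FastQC 0.11.9 were used with the build mm10, and settings are not given in the sources used here. The libraries were of polyadenylated RNA at 96 h and from tumors and of total RNA at 10 d, per the labels, and the kit does not mark the strand. Each of the 3 tables was fitted alone in edgeR 4.0.16 (R 4.3.3): filterByExpr by group, which kept 13333, 15230 and 14332 genes, TMM normalization, and the quasi-likelihood F-test with Benjamini-Hochberg adjustment over all genes tested. Calls needed an adjusted p below 0.05. Cell line entered the 96 h fit as a block, and all groups of a table shared a fit at 10 d and in tumors. CPM are TMM-normalized, RPKM divide them by the deposited gene length, and SE comes from the fitted log2 change and its F statistic. Precision follows depth, 5638353 to 82205546 counts a library.

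The members, classes, partner list, markers and motifs were chosen with earlier results of these data known. Members named were all those called, up to 30 of lowest p in BOM against DMSO at 10 d and 15 elsewhere, or the 3 of lowest p where none was called; others were named after their values were seen, and some that the rule names are not reported here. Same-numbered DMSO libraries with and without IFNg correlated in their deviations at 0.406, 0.122 and 0.132. The best match of number 3 was number 2, so a pairing by number is uncertain. Same-numbered BOM libraries with and without IFNg correlated at 0.209 and 0.209. The main 10 d fit used no pairing. No pair of libraries agreed within counting noise (lowest chi-square per degree of freedom 2.55). The fits were tested on simulated counts. Coordinates came from GENCODE M21, in which all 134 members matched by identifier. Alternatives were DESeq2 1.42.0, voom in limma 3.58.1, other scalings and filters, fits of the compared groups only, a replicate block, and libraries left out. Protein sequences were not used here.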

Additional observations from a re-analysis of the deposited data

Results flagged for a closer look

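In groups of 4 to 10 samples, the highest or lowest value was compared with the nearest other by Dixon's rule over 26 members with 104 group ranges. In 4 of these ranges 1 tumor lay far from the rest, which is not above the about 1 in 20 that chance alone gives. All 4 belong to Cacna1s, Scn4a and Cacng1, which were put on the list by name and not for a call. In BOM tumor 2 the skeletal muscle channel subunits Cacna1s, Scn4a and Cacng1 stood at 11.5, 6.99 and 2.08 CPM, against 0 to 0.126 CPM for Cacna1s and 0 for the other 2 in the other BOM tumors, and this tumor also held 1218 CPM of skeletal muscle markers. In anti-PD1 tumor 2, Cacna1s stood at 0.175 CPM, a value near the floor, against 0 in the other anti-PD1 tumors.

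For 3 reported members, opposite calls without overlap were found in at least 1 culture comparison and at least 1 tumor comparison. Every BOM library there lay on 1 side of its controls in culture and on the other side in tumors. The share of all genes that do so is not given here, so this is not a trait shown to be particular to channels. The opposite placing did not hold in every comparison. Between BOM and vehicle tumors Kcnh3 (0.17) and Kcnc4 (-1.21) overlapped and were not called. Kcnc4 with IFNg (0.53) and Scn2a at 10 d without IFNg (0.11) were not called either. Differences between culture and tumors were not tested, and the tables were normalized separately. Kcnh3 changed by -1.63 at 10 d (-1.38 with IFNg) and by 0.49 between BOM plus anti-PD1 and anti-PD1 tumors. Kcnc4 changed by 0.97 at 10 d and by -1.31 between the same tumors. Scn2a changed by 0.32 at 10 d with IFNg, by -1.83 between BOM and vehicle tumors and by -1.50 between BOM plus anti-PD1 and anti-PD1 tumors.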

How the results depend on the processing

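The fold change of no named gene changed sign in any alternative run. Among the alternative fits, a share over all genes is given only for those without vehicle tumors 1 and 2. The other counts below therefore cannot be read as particular to channels. With library size alone as the scaling, the calls for BOM at 10 d became 19 higher and 19 lower, and with IFNg 21 and 20, in place of more lower than higher calls. Without the filter on low counts, edgeR called 4 members higher and 1 lower at 96 h, 5 higher for IFNg in DMSO cultures and 2 higher for BOM against vehicle. DESeq2 called 1 higher at 96 h and 3 lower for anti-PD1 against vehicle, and voom 4 higher for BOM plus anti-PD1 against vehicle. Fits of the compared groups only called 1 higher for IFNg in BOM cultures, 0 higher for BOM against vehicle, and 0 higher and 2 lower for BOM plus anti-PD1 against vehicle. Without vehicle tumors 1 and 2 the higher calls were 11 and 16 for these tumor comparisons. The replicate block gave 5 higher for IFNg in DMSO cultures, where the number may pair the libraries. In tumors, where same-numbered samples were not taken as pairs, the block gave 3 higher for BOM against vehicle and 10 lower for BOM plus anti-PD1 against vehicle. At 96 h, leaving the line out of the fit (no replicate block) called 0 higher and 0 lower.

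Leaving out 1 library at a time gave 0 to 4 higher and 0 to 3 lower at 96 h, 14 to 18 and 16 to 26 at 10 d, and 15 to 19 and 14 to 23 with IFNg. For IFNg it gave 2 to 3 higher and 0 to 3 lower in DMSO and 1 to 3 higher in BOM. In tumors it gave 0 to 7 higher and 13 to 25 lower for BOM against vehicle, 16 to 21 and 22 to 27 for BOM plus anti-PD1 against anti-PD1, and 0 to 12 and 8 to 21 for BOM plus anti-PD1 against vehicle. The lower calls at 10 d were 16 without either BOM library, and those with IFNg were 14 without BOM plus IFNg library 2. For IFNg in DMSO, 0 were lower without DMSO 2 or DMSO plus IFNg 3, and 3 without DMSO plus IFNg 1. Higher calls for BOM against vehicle were 1, 0 and 1 without vehicle 3, 4 and 5, and 1, 1, 2 and 1 without BOM 1 to 4. For BOM plus anti-PD1 against vehicle they were 0 without vehicle 3, 4 or 5 and 2, 3 and 4 without BOM plus anti-PD1 tumors 1, 2 and 4, and the lower calls were 10, 9 and 8 without vehicle 3, 4 and 5 and 10, 9 and 10 without BOM plus anti-PD1 tumors 2, 3 and 4. The causes were not tested. Thinning vehicle tumor 1 changed no count. Named genes kept their call in every alternative for 27 of 30 at 10 d, 15 of 15 with IFNg, 13 of 15 for BOM against vehicle and 15 of 15 for BOM plus anti-PD1 against anti-PD1, but 2 of 15 for BOM plus anti-PD1 against vehicle.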

Other observations

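Further calls at 10 d, named after their values were seen, lay in the Kv classes. The ether-a-go-go channels Kcnh4 and Kcnh5 changed by -0.70 and -0.34 on the log2 scale, the A-type pore Kcnd2 by -0.54 and its relative Kcnd3 by 0.76, and Kcnip3 by -0.30. In culture Dpp10, an A-type channel partner, changed by 0.87, and between BOM and vehicle tumors by -0.74. The difference between these was not tested.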
